A study of Homo sapiens with 12 samples.

Results

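A set of 9 transcription factors of adrenocortical identity and steroid gene control were followed by their mRNA in NCI-H295R cells. They are NR5A1, NR0B1, NR4A1, NR4A2, NR4A3, GATA4, GATA6, WT1 and NR2F2, listed by gene symbol. No cutoff on a measured value picked them, but the list was chosen with earlier results of these data known. All 9 were found among the 60662 genes of the deposited table, and 8 of them were among the 16815 genes that passed the filter on low values, which asked for at least 0.5 TPM in at least 4 samples. TPM is a gene's length-corrected share of all RNA in a library. NCI-H295R is 1 line of human adrenocortical carcinoma cells. Each group had 4 samples, from cells that spent 12 h without serum before a treatment of 24 h. VEH received 0.1% DMSO, CJ28 received 30 µM of the benzimidazolylurea CJ28, and MET received 30 µM of metyrapone, which blocks 11β-hydroxylase. All 3 groups shared the serum-free period, and no ACTH or other stimulus is named in the labels.

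The cells expressed the 7 listed markers of steroid-producing cortex. CYP11B1 and CYP11B2, genes of the last steps to cortisol and aldosterone, are not among the 7 and reached at most 0.05 TPM in any sample. The summed level of 7 adrenocortical markers was 374 to 398 TPM in VEH, 231 to 288 in CJ28 and 366 to 380 in MET, and all 7 passed the filter. SCARB1 made up much of that sum in CJ28 (137 to 194 TPM). Without it the sum was 232 to 247 TPM in VEH, 90.7 to 94.7 in CJ28 and 235 to 246 in MET. Of the 7 markers, 6 were called lower in CJ28 than in VEH, with SCARB1 not called (limma). HSD3B2 is among the 6 but passed the filter through VEH and MET samples alone. None of 12 markers of chromaffin, endothelial, immune or mesenchymal cells passed it. Their sum was 0.56 to 1.57 TPM in VEH, 0.23 to 0.54 in CJ28 and 0.58 to 1.09 in MET, with TH and CD3E listed at 0 in every sample. Nuclear protein-coding genes held 21.3% to 21.4% of TPM in CJ28, against 24.3% to 24.8% in VEH and 24.1% to 24.6% in MET. Because TPM is a share, the whole distribution can shift: the CJ28 minus VEH median over tested genes was -0.134 on the log2 scale, and the changes below are read against it. Dividing TPM by a median-of-ratios factor for each sample brought that median to 0.014. In bulk RNA, fewer cells making a transcript and less of it per cell cannot be told apart.

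NR5A1 (steroidogenic factor 1) is the nuclear receptor that establishes adrenal and gonadal cell fate and switches on most steroidogenic enzyme genes. NR0B1 (DAX-1) lacks a classical DNA-binding domain and represses NR5A1 by binding to it. The NR4A receptors are products of immediate-early genes, induced by ACTH or angiotensin signals, which bind DNA without a ligand and take part in the control of HSD3B2 and CYP11B2. GATA4 and GATA6 are zinc finger factors that work beside NR5A1 on steroidogenic promoters, with GATA6 the main form in adult cortex. WT1 acts upstream of NR5A1 in the adrenogonadal primordium, and NR2F2 (COUP-TFII) is a nuclear receptor of progenitor and stromal cells that can compete with NR5A1 for its sites.

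Promoter sequence is shown for NR5A1, NR0B1 and NR4A3, members that did not all move in the same direction under CJ28. Their windows hold different words among those searched. From the RefSeq promoter table (GRCh38.p14), 12 windows for 7 of the 9 members were searched. No window was used for NR4A2 or GATA4. The searched words were AGGTCA, the core bound by NR5A and NR4A receptors, its extended forms CAAGGTCA for NR5A and AAAGGTCA for NR4A, TGACG, the core of the cAMP response element, TGACGTCA, the full element, CACGTG, an E-box bound by USF1, CCAAT, bound by NF-Y, GGGCGG, bound by SP1, and the GATA words AGATAA or AGATAG or TGATAA or TGATAG. Both strands were read. Capitals mark the cores AGGTCA and TGACG and the words CACGTG and CCAAT and the GATA words. Each line gives the 250 bases before the RefSeq start, 5′ to 3′ on the strand of the gene, from chr9:124507400-124507649 (minus strand) for NR5A1, chrX:30309391-30309640 (minus strand) for NR0B1 and chr9:99821635-99821884 (plus strand) for NR4A3.
NR5A1: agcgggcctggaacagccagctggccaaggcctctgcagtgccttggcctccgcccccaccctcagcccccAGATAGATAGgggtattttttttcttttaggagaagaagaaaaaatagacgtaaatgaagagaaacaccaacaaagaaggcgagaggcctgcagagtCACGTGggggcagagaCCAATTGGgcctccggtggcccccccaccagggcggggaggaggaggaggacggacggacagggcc
NR0B1: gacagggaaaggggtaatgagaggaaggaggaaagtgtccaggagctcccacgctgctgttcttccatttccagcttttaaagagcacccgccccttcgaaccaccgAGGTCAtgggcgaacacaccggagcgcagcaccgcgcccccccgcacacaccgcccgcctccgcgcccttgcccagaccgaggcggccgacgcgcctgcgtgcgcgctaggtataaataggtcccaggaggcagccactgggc
NR4A3: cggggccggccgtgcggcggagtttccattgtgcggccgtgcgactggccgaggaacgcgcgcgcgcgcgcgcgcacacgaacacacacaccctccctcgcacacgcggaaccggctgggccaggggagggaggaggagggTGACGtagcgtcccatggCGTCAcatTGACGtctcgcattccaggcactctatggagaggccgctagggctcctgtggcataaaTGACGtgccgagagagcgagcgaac

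In the NR5A1 window the E-box began 82 bases before the start. CCAAT lay at 66 and, on the opposite strand, at 63, in overlapping copies. AGATAG occurred at 179 and 175, also overlapping. Of all 35116 windows of this length, 6.34% held CACGTG, 32% CCAAT and 22.3% a GATA word. The NR0B1 window held 1 AGGTCA, at 143 bases, as did 12.1% of all windows. The NR4A3 window held 4 copies of TGACG, at 109, 91, 83 and 25 bases, where 21.2% of all windows held at least 1. Neither window of NR4A1 held TGACG, and the window at its annotated start (52022582 to 52022831 on chromosome 12) held 1 AGATAA. The other NR4A1 window began at 52037465, and the rest of the gene, which reaches 52059507, was not searched. The absence of TGACG therefore does not extend to other starts of NR4A1. The NR2F2 windows began at 96332315 and 96333515 on chromosome 15, inside the annotated gene, which starts at 96325938. CAAGGTCA (in 1.14% of all windows) and AAAGGTCA (in 1.05%) and TGACGTCA (in 1.65%) were in none of the 12 searched windows of the members. GGGCGG (42.6% of all windows) was found in NR5A1, NR0B1, NR4A1 and WT1 windows. These are matches of letters and show no binding.

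Without a drug, NR5A1 was the most abundant of the 9. In VEH its mean was 47.9 ± 1.89 TPM (SD, n = 4 for every group here and below), rank 912 of the 17696 nuclear protein-coding genes with a mean above 0. NR4A1 followed with 22.2 ± 1.44 TPM. Next came NR2F2 at 10.3 ± 0.913 and NR4A3 at 9.38 ± 0.873 TPM, whose samples overlapped, so these neighbours were not separated. NR0B1 stood at 2.94 ± 0.271 TPM. GATA6 (1.58 ± 0.129 TPM) and GATA4 (1.52 ± 0.231 TPM) overlapped, NR4A2 was at 0.472 ± 0.104 TPM, and WT1 was listed at 0. Among all 48 nuclear receptors, NR5A1 had rank 2 in VEH, after the clock repressor NR1D2, and NR4A1 had rank 4. In CJ28 NR4A1 had rank 2 and NR5A1 rank 4, NR2F2 went from rank 9 to 17 and NR4A3 from 10 to 15. In MET NR5A1 and NR4A1 had ranks 2 and 4, as in VEH. These ranks order group means, and neighbours were not always separated. Samples overlapped for NR5A1 and NR1D2 in VEH, and for NR4A1 and NR1D2 and for NR5A1 and RORB in CJ28. Within the 9, NR4A1 lay above NR5A1 in CJ28 without overlap, and NR0B1 lay above NR4A3 and NR2F2.

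CJ28 changed 6 of the 8 tested factors, 4 downward (NR5A1, NR4A3, GATA6, NR2F2) and 2 upward (NR0B1, NR4A1), at an adjusted p under 0.05 in limma. That share has to be read against a broad response, since 57.0% of all tested genes were called for CJ28 against VEH, 19.9% higher and 37.1% lower. The same 6 factors had CJ28 and VEH ranges that lay apart, which held for 50.3% of all tested genes. With 8 genes against such a background, the count says nothing particular about the factors. Under median-of-ratios factors, lower genes as a share of all called genes went from 65.1% to 47.4%, while the members' split remained 2 higher and 4 lower, with the same genes in each direction.

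NR5A1 (ENSG00000136931.10, GRCh38 chromosome 9, 124481236 to 124507420) read 48.9, 49.5, 45.2 and 48.0 TPM in VEH and 24.7, 27.6, 26.2 and 28.8 TPM in CJ28. Every CJ28 sample lay well below the lowest VEH sample. The log2 fold change was -0.84 (standard error 0.0503, adjusted p = 2.54e-08 in limma), a decrease of the mean by 44%, and it was -0.68 after scaling. NR0B1 (ENSG00000169297.8, chromosome X, 30304206 to 30309390) moved the other way. It read 2.91, 3.05, 3.22 and 2.58 TPM in VEH and 5.96, 5.94, 5.96 and 5.37 TPM in CJ28. The groups were far apart, and 3 of the CJ28 samples were nearly equal. Its log2 fold change was 0.96 (standard error 0.107, adjusted p = 7.60e-06 in limma), and 1.11 after scaling. The activator of steroid gene transcription was lower and its repressor higher in the same 4 samples. The paper had already reported NR5A1 and NR0B1 as altered by CJ28 and not by MET, from these same samples.

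The NR4A receptors did not move as a family. NR4A1 (NUR77; ENSG00000123358.20, chromosome 12, 52022832 to 52059507) had 24.1, 20.8, 21.6 and 22.2 TPM in VEH and 41.2, 41.3, 39.2 and 51.0 TPM in CJ28. CJ28 sample 4 was the highest, and without it the groups stayed apart. The log2 fold change was 0.95 (standard error 0.0776, adjusted p = 4.28e-07 in limma), with a range of 0.87 to 1.00 when each sample was left out in turn. NR4A3 (NOR1; ENSG00000119508.18, chromosome 9, 99821855 to 99866891) had 9.27, 10.4, 8.26 and 9.62 TPM in VEH and fell under CJ28 to 4.92, 4.79, 4.46 and 5.15 TPM. Here all 4 CJ28 samples were below every VEH sample, and the log2 fold change was -0.94 (standard error 0.0695, adjusted p = 1.73e-07 in limma). After scaling the changes were 1.11 for NR4A1 and -0.79 for NR4A3. NR4A2 (NURR1; ENSG00000153234.14, chromosome 2, 156324437 to 156342348) stayed low, at 0.36 to 0.61 TPM in VEH and 0.41 to 0.59 TPM in CJ28. It passed the filter with 4 samples at or above 0.5 TPM, and its log2 fold change of 0.09 had a 95% interval of -0.33 to 0.51 (adjusted p = 0.712 in limma), which leaves room for moderate changes in either direction.

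The summed TPM of NR4A1, NR4A2 and NR4A3 was 30.3 to 34.0 in VEH and 44.1 to 56.7 in CJ28 (two-sided exact permutation test of the means, p = 0.0286, the smallest that 4 against 4 samples allow). NR4A1 supplied 65.9% to 71.3% of that sum in VEH and 88.2% to 89.9% in CJ28, while the share of NR4A3 went from between 27.2% and 32.9% to between 9.08% and 10.5%. The sum in MET was 30.7 to 33.6 TPM, inside the VEH range.

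Of the GATA factors only GATA6 was called. GATA6 (ENSG00000141448.10, chromosome 18, 22169392 to 22202528) had 1.47, 1.55, 1.55 and 1.77 TPM in VEH and 0.55, 0.87, 0.55 and 0.79 TPM in CJ28. Although the level was low, the groups did not overlap. The log2 fold change was -1.11 (standard error 0.154, adjusted p = 5.07e-05 in limma) and -0.98 after scaling. It depended on the constant added before the logarithm, with -0.62 at a constant of 1 and -1.21 at 0.01. GATA4 (ENSG00000136574.17, chromosome 8, 11676959 to 11760002) had 1.81, 1.41, 1.28 and 1.60 TPM in VEH and 1.77, 1.58, 1.36 and 1.67 TPM in CJ28, with full overlap. Its log2 fold change of 0.07 had a 95% interval of -0.21 to 0.34 (adjusted p = 0.683 in limma), and after scaling it was 0.21 (adjusted p = 0.169 in limma). WT1 (ENSG00000184937.15, chromosome 11, 32387775 to 32435564) was listed at 0 in all 12 samples, as was its antisense transcript WT1-AS, and neither was tested. The table gives no read number behind a 0.

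NR2F2 had the largest log2 fold change among the tested members. This gene (ENSG00000185551.15, chromosome 15, 96325938 to 96340263) had 10.5, 11.1, 8.99 and 10.6 TPM in VEH and 4.24, 4.66, 3.55 and 4.22 TPM in CJ28. The highest CJ28 sample was far under the lowest VEH sample. Its log2 fold change was -1.29 (standard error 0.0861, adjusted p = 6.77e-08 in limma), a loss of 59.6% of the mean expressed as TPM, and -1.14 after scaling.

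Antisense transcripts overlap 3 of the members, and the sources used here do not state whether strand was used when genes were quantified, so their reads may be mixed. GATA6-AS1 shares 487 bp with GATA6 and was also lower in CJ28. Its VEH samples had 0.58, 0.67, 0.76 and 0.95 TPM and its CJ28 samples 0.30, 0.05, 0.40 and 0.33 TPM. These values are given as a description, since it passed the filter through VEH and MET samples alone. NR2F2-AS1 shares 1424 bp with NR2F2 and did not follow it. NR2F2-AS1 had 0.47 to 0.92 TPM in VEH and 0.74 to 1.40 TPM in CJ28, and its log2 fold change of 0.44 was not called (adjusted p = 0.159 in limma). WT1-AS overlaps WT1 by 47 bp.

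**Figure D1:**
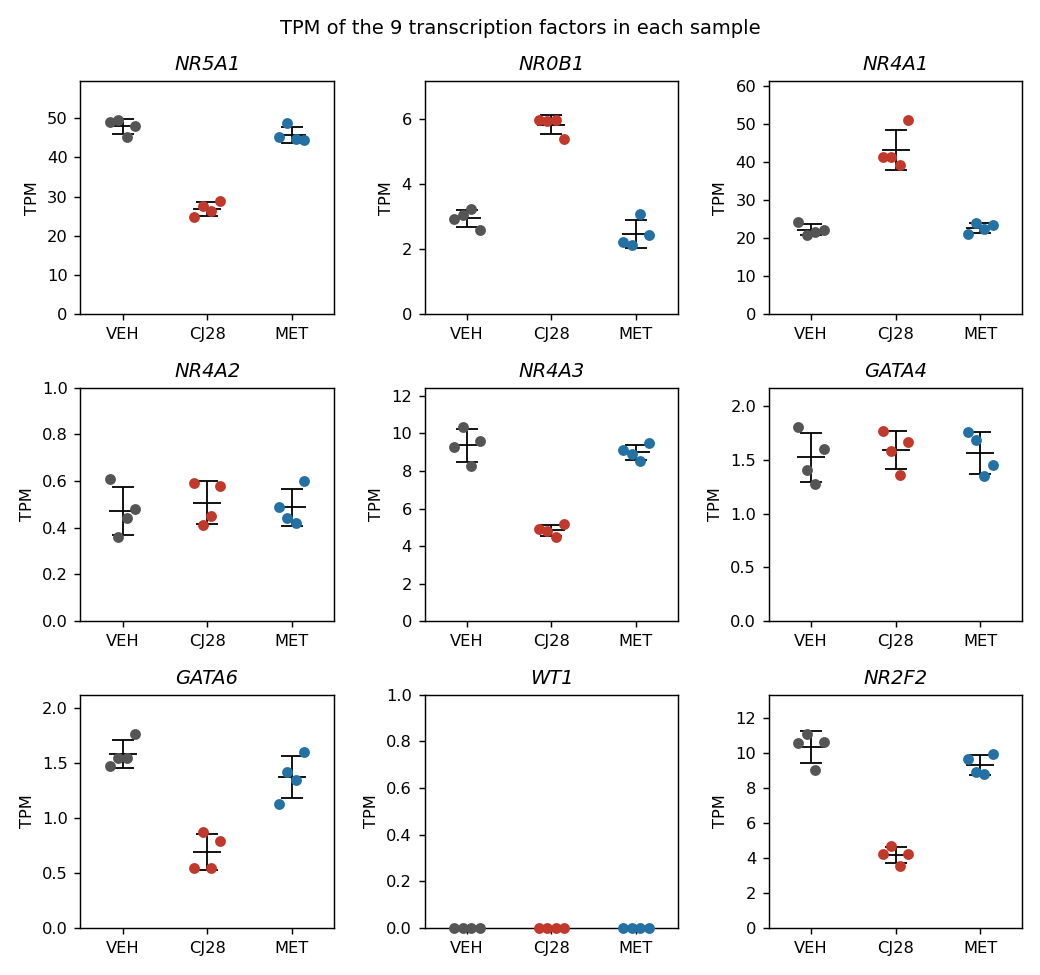
TPM (vertical axes, linear, starting at 0) of the 9 transcription factors in VEH, CJ28 and MET. Points are the 4 samples of a group, and bars are the mean ± SD. CJ28 points lie apart from VEH and MET in the panels of NR5A1, NR0B1, NR4A1, NR4A3, GATA6 and NR2F2, and WT1 is at 0 throughout.

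MET left the same factors close to VEH. None of the 8 tested members was called for MET against VEH in limma, where 0.00595% of all tested genes (1 gene) were called, and none had groups without overlap, against 2.81% of all tested genes. At an unadjusted p under 0.05 in limma, 1 of the 8 was counted, NR0B1, where 5.20% of all tested genes (874) were. NR0B1 read 2.21, 2.14, 3.09 and 2.42 TPM in MET, with 3 samples below the VEH range and 1 inside it. Its log2 fold change from VEH was -0.26 (95% interval -0.49 to -0.02, adjusted p = 0.933 in limma). NR5A1 read 45.2, 48.7, 44.6 and 44.5 TPM in MET, overlapping VEH, with a log2 fold change of -0.07 and an interval of -0.18 to 0.04. The interval was -0.13 to 0.20 for NR4A1, -0.21 to 0.10 for NR4A3 and -0.33 to 0.04 for NR2F2. For the weakly expressed factors the data set looser bounds, -0.53 to 0.14 for GATA6, -0.24 to 0.31 for GATA4 and -0.37 to 0.46 for NR4A2. These intervals leave out changes as large as those under CJ28 for NR5A1, NR0B1, NR4A1, NR4A3, GATA6 and NR2F2.

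Set directly against each other at 30 µM, CJ28 and MET differed in the same 6 factors. Of all tested genes 55.5% were called in that comparison, 20.9% higher and 34.6% lower in CJ28. It shares its CJ28 samples with the comparison against VEH and is no independent repeat of it. NR0B1 had the largest difference, 1.22 on the log2 scale (standard error 0.107, adjusted p = 9.21e-07 in limma), with 2.47 ± 0.433 TPM in MET and 5.81 ± 0.292 TPM in CJ28. NR4A1 differed by 0.92 (adjusted p = 6.24e-07 in limma). The log2 differences were -1.14 for NR2F2, -0.91 for GATA6, -0.89 for NR4A3 and -0.77 for NR5A1, with a largest adjusted p of 2.63e-04 in limma, that of GATA6. GATA4 and NR4A2 did not pass (adjusted p = 0.859 and 0.856 in limma). Their differences lay between -0.25 and 0.31 and between -0.37 and 0.46 with 95% confidence, which does not show that the compounds act alike on them.

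**Figure D2:**
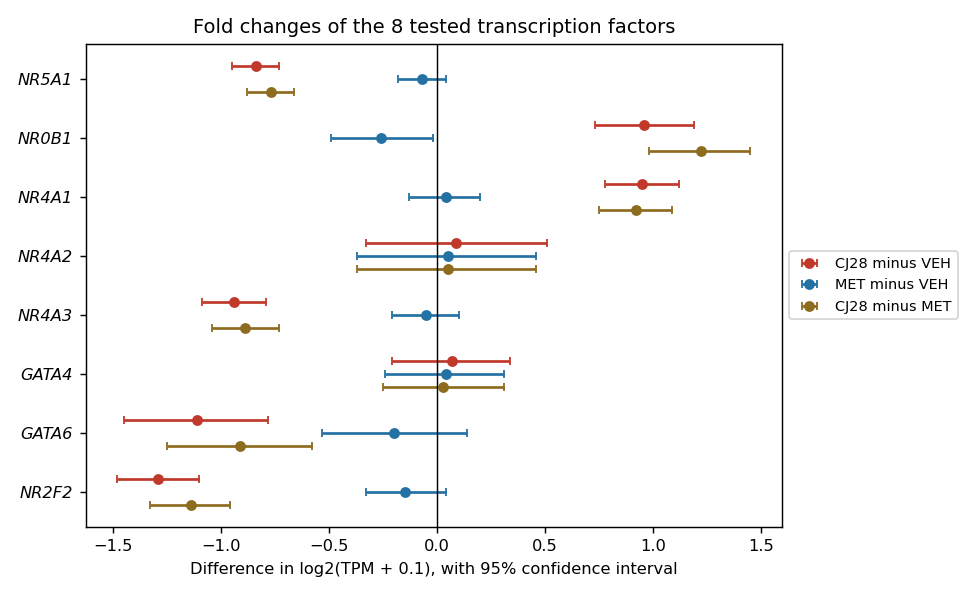
Differences in log2(TPM + 0.1) between groups (horizontal axis) for the 8 tested factors, from one limma fit. Points are estimates and bars 95% confidence intervals, for CJ28 minus VEH, MET minus VEH and CJ28 minus MET. The CJ28 intervals exclude 0 for 6 factors, and the MET minus VEH intervals all include 0 except that of NR0B1, which ends at -0.02.

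Ratios of 2 factors within a sample do not depend on how the library was scaled. NR0B1 stood to NR5A1 as 0.0537 to 0.0712 in the VEH samples, 0.186 to 0.241 in CJ28 and 0.0440 to 0.0693 in MET. The mean ratio was 3.54 times higher in CJ28 than in VEH. NR4A1 to NR4A3 was 2.00 to 2.61 in VEH, 8.38 to 9.90 in CJ28 and 2.31 to 2.69 in MET, a rise of 3.75 times from VEH to CJ28. NR4A1 to NR5A1 was 0.419 to 0.494 in VEH and 1.5 to 1.77 in CJ28, so that the order of these receptors turned over. GATA6 to GATA4 was 0.812 to 1.21 in VEH, 0.311 to 0.551 in CJ28 and 0.642 to 1.10 in MET. NR2F2 to NR5A1 was 0.199 to 0.224 in VEH and 0.135 to 0.172 in CJ28, which places the fall of NR2F2 beyond that of NR5A1. Each of these ratios separated CJ28 from VEH and from MET without overlap. In the two-sided exact permutation test each had p = 0.0286, adjusted p = 0.0429 over the 18 tests of 5 ratios and the NR4A sum. For NR0B1 to NR5A1, NR4A1 to NR4A3 and NR4A1 to NR5A1 this outcome was fixed beforehand. The genes of each pair already lay apart in opposite directions, so these p-values add no support. For MET against VEH the exact permutation p ranged from 0.171 to 0.429 over the 5 ratios.

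**Figure D3:**
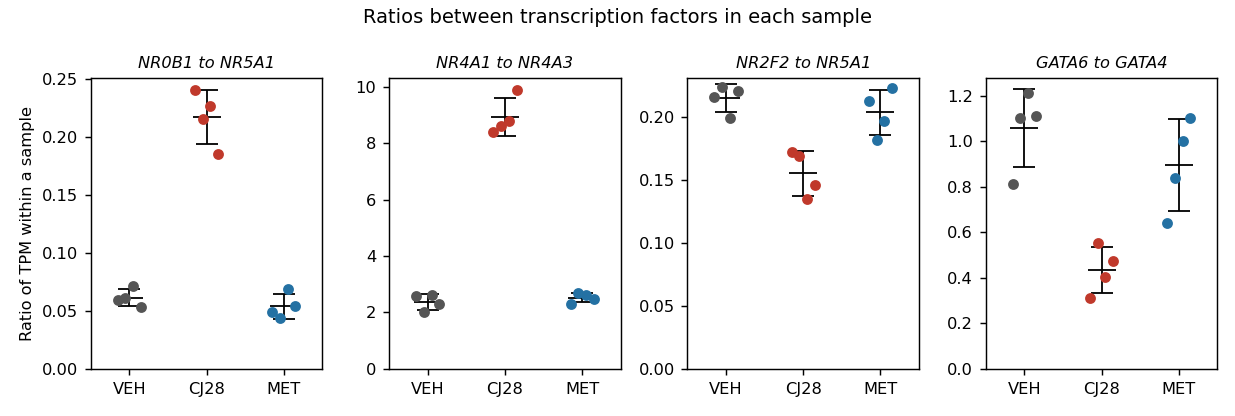
Ratios of the TPM of 2 factors within each sample (vertical axes, linear, from 0) in VEH, CJ28 and MET. Points are samples and bars the mean ± SD of 4. NR0B1 to NR5A1 and NR4A1 to NR4A3 are higher in all 4 CJ28 samples, and NR2F2 to NR5A1 and GATA6 to GATA4 are lower.

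For each called factor, the genes with the most similar profile were sought among tested genes of at least 1 TPM on average, by the root mean square difference of log2(TPM + 0.1), set to 0 at the VEH mean, over the 12 samples. For NR5A1 these were CLDN1 (0.0576) and RBBP7 (0.0583), for NR0B1 PLTP (0.132) and PTPRM (0.142), for NR4A1 FZD7 (0.0764) and EXOC3 (0.079), and for NR4A3 LTBP1 (0.0514) and CASP2 (0.0577). For NR2F2 they were NEURL1B (0.0838) and GABBR2 (0.0868). For GATA6 they were VANGL1 (0.121) and FATE1 (0.128). FATE1 is itself on the list of NR5A1 targets described next, and had 3.21 ± 0.469 TPM in VEH and 1.37 ± 0.257 TPM in CJ28. With so many genes changed by CJ28, a close profile marks a change of like size in the same samples and nothing more.

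Genes known as targets of NR5A1 were mostly lower in CJ28. Of 19 listed, 15 were tested, and 12 were called lower (80%, against 37.1% of all tested genes) and none higher. The median log2 fold change was -1.18, against -0.134 for all tested genes. This list was chosen with earlier results of these data known. The paper had already reported STAR, CYP11A1, HSD3B2 and CYP17A1 as altered by CJ28, and a gene it writes as CYP21A1. The share is therefore no independent result. The list also holds the adrenocortical markers counted above, and it leaves out the members, among them NR0B1, which was higher. The 3 tested targets that were not called were SCARB1, CYP19A1 and AMH, named after their values were seen. CYP17A1, the 17α-hydroxylase needed for cortisol, had a log2 fold change of -2.35. HSD3B2, which encodes 3β-hydroxysteroid dehydrogenase, is counted among the 12 but passed the filter through VEH and MET samples alone. Its log2 fold change of -1.73 is given as a description, since none of its CJ28 samples reached the filter's 0.5 TPM. SULT2A1, the DHEA sulfotransferase and also a known GATA6 target, had 10.2 ± 0.823 TPM in VEH and was lower in CJ28 at 3.75 ± 0.141 TPM (log2 fold change -1.42, standard error 0.0596, adjusted p = 9.38e-10 in limma). STAR, the cholesterol carrier into mitochondria, followed with -1.39. SCARB1, the HDL receptor, rose after scaling only (0.20 before, adjusted p = 0.0672 and 0.35 after, adjusted p = 0.00185, both in limma). CYP11B1 and CYP11B2, encoding the last enzymes of cortisol and aldosterone synthesis, reached at most 0.05 TPM in any sample and were not tested. For MET none of the 15 was called in limma.

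Other nuclear receptors were called about as often as all genes. Of the other 42, 31 were tested, and in CJ28 against VEH 11 were called higher, 7 lower and 13 not, with a median log2 fold change of 0.14. The called share was 58.1%, near the 57.0% of all tested genes, so that share is no result about the family. By direction, 35.5% were higher and 22.6% lower, where all tested genes had 19.9% and 37.1%. This difference in balance was not tested. NR2E1 (tailless) had 0.282 ± 0.025 TPM in VEH and 0.682 ± 0.0746 TPM in CJ28. It is counted among the 11 but passed the filter through its 4 CJ28 samples alone. It could thus enter that count only by being high in CJ28, and its values are given as a description. NR3C2, the mineralocorticoid receptor, rose from 0.588 ± 0.0506 to 1.17 ± 0.140 TPM, with 0.88 on the log2 scale. PGR, the progesterone receptor, fell from 3.39 ± 0.192 to 1.79 ± 0.102 TPM (log2 fold change -0.88, adjusted p = 7.35e-07 in limma), and NR1I3 (CAR), a xenobiotic receptor, from 0.962 ± 0.298 to 0.512 ± 0.0596 TPM. NR5A2, the closest relative of NR5A1, was listed at 0 in all 12 samples. With median-of-ratios scaling the split became 14 higher and 4 lower. NR1D2, RXRA and ESR1 were no longer called lower, and NR1D1, RXRB and NR3C1 were newly called higher, each with its sign kept. Which of the smaller changes in this family were called thus depended on scaling.

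Partners and cofactors of these factors were called in shares close to those of all genes. Of 42 listed, 35 were tested, with 7 higher and 15 lower in CJ28, a median log2 fold change of -0.12, and 13 higher and 10 lower after scaling. The called share of 62.9%, with 20% higher and 42.9% lower, was near the 57.0%, 19.9% and 37.1% of all tested genes. The largest change was in PKNOX1 (PREP1), a TALE homeodomain factor. PKNOX1 read 7.98, 8.53, 9.25 and 8.28 TPM in VEH and 2.72, 2.62, 2.7 and 2.97 TPM in CJ28. The groups were far apart, by -1.59 on the log2 scale (SE 0.0708, limma adjusted p = 1.60e-09) and -1.44 after scaling. In MET it read 7.30, 7.63, 6.26 and 6.82 TPM, below every VEH sample, but its log2 fold change of -0.28 did not pass (adjusted p = 0.889 in limma). PPARGC1A (PGC-1α), a coactivator of nuclear receptors, rose from 1.35 ± 0.119 TPM in VEH to 3.64 ± 0.428 TPM in CJ28 (log2 fold change 1.36, adjusted p = 3.80e-06 in limma). SOX8 and MEIS2, a SOX factor of the developing gonad and a TALE homeodomain factor, had log2 fold changes of -0.69 and -0.53, and both remained called after scaling (-0.55 and -0.38). The GATA cofactors ZFPM1 and ZFPM2 (FOG1 and FOG2) were under the filter, at 0.60 TPM or less in every sample.

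The immediate-early list holds the kind of genes to which the NR4A genes are usually assigned. Of 22 genes, 16 were tested, 6 were higher, 3 lower and 7 not called in CJ28, and the median log2 fold change was -0.05. The called share of 56.2% was near that of genes in general (57.0%). By direction, 37.5% were higher and 18.8% lower, where all tested genes had 19.9% and 37.1%, and this balance was not tested. ATF3, a stress-induced bZIP factor, rose from 2.31 ± 0.305 TPM in VEH to 7.85 ± 1.48 TPM in CJ28, with a log2 fold change of 1.71 (adjusted p = 9.82e-07 in limma). KLF4, a zinc finger factor, rose by 1.14 and JUN, a subunit of AP-1, by 1.10 on the log2 scale, while BTG2, an antiproliferative gene, fell by 0.97. FOS and EGR1 had 0.762 ± 0.274 and 0.728 ± 0.147 TPM in VEH, 0.702 ± 0.336 and 0.682 ± 0.0250 TPM in CJ28, and were not called (adjusted p = 0.762 and 0.748 in limma), both named after their values were seen. After scaling 7 were higher and 3 lower. MET called none of the tested genes of these lists in limma.

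**Figure D4:**
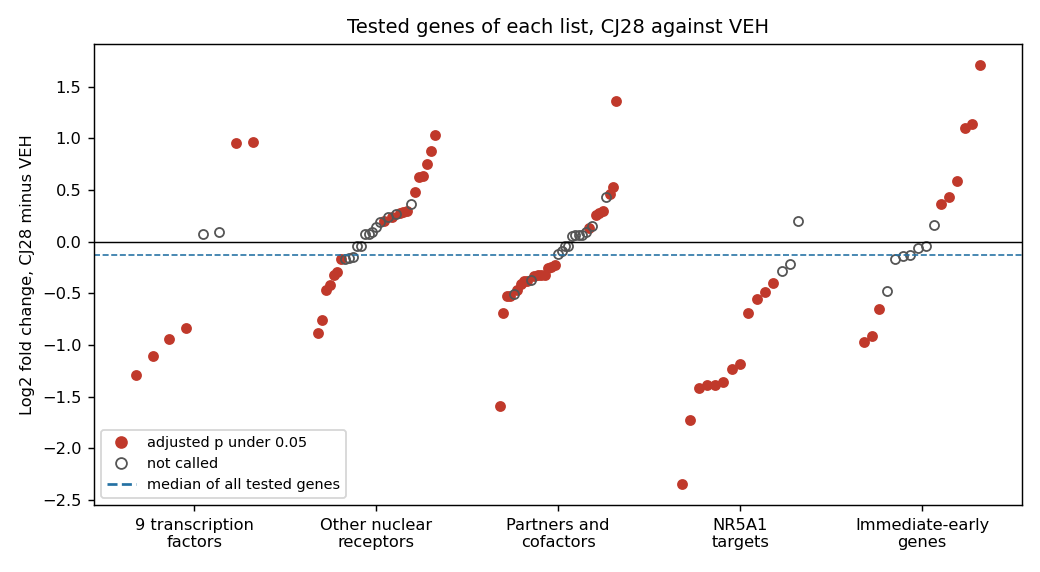
Log2 fold changes from VEH to CJ28 (vertical axis) of the tested genes of 5 lists, each ordered by size. Filled points have an adjusted p under 0.05 in limma, open points do not, and the dashed line is the median of all 16815 tested genes, -0.134. The NR5A1 targets reach the lowest values, and the 9 factors, with 8 tested, divide into 2 higher, 4 lower and 2 not called.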

How the data were processed

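RNA-seq was examined in 12 samples of NCI-H295R cells, 4 each of VEH, CJ28 and MET, grouped by sample title. The sources used here do not say whether samples of a group were separate cultures, so p-values measure the spread between these samples. The deposited TPM values were made by the authors from rRNA-depleted, stranded libraries with Cutadapt (version 2.8), STAR (version 2.7.10b) and RSEM (version 1.3.3) on GRCh38, and the annotation release is not given in the sources used here. TPM keeps no read depth, so count models, counting errors and detection limits were not used, and the authors' DESeq2 comparison was not rerun. For the tests here, limma (version 3.58.1, eBayes with a trend, under R version 4.3.3) modelled log2(TPM + 0.1) of the 16815 genes with at least 0.5 TPM in at least 4 samples, all 12 samples in 1 fit. P-values were two-sided and Benjamini-Hochberg adjusted over all tested genes. The procedure was also run on simulated data in which few genes changed, in both directions alike. That setting differs from the broad CJ28 response, so it does not check the CJ28 counts. Ratios were compared by exact permutation tests in scipy (version 1.17.1, Python version 3.11.15).

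The members and gene lists were chosen with earlier results of these data known. Text genes are the 9 members, up to 4 genes per list with the largest absolute change among those called for CJ28 against VEH, the antisense transcripts and the 2 closest profiles per called member. Marker genes check the cell type. Alternatives were other pseudocounts (1 and 0.01), filters, scalings, samples in the fit, a replicate block, no moderation, and leaving out each sample. TPM rescaling used nuclear protein-coding genes.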

Additional observations from a re-analysis of the deposited data

Results flagged for a closer look

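Among 42 sets of 4 samples examined (the members with any signal, their ratios and the NR4A sum, in each group), 1 had a sample far from the others by Dixon's test. It was NR0B1 in CJ28, where sample 4 had 5.37 TPM and the other 3 had 5.94 to 5.96 TPM, and the gap filled 0.966 of the range. The sample still lay above every VEH and MET sample. About 1 in 20 such sets would be marked by chance.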

How the results depend on the processing

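The counts of members called were 6, 0 and 6 for CJ28 against VEH, MET against VEH and CJ28 against MET under every alternative run. Of 501 alternative values of the members' fold changes, 488 kept their direction and call, and the other 13 were sign changes of NR4A2 or GATA4, which were not called. For MET against VEH, where 1 gene was called, the number was 5 with all genes above 0 TPM, 0 with a mean of at least 1 TPM, 0 with a pseudocount of 0.01 or of 1, 2 after rescaling over nuclear protein-coding genes, and 1 to 2 when each sample was left out, with 2 without MET sample 4 or VEH sample 4. The cause was not tested. With a replicate block 9546, 1 and 9361 genes were called in the 3 comparisons (9577, 1 and 9334 without it). Same-numbered samples deviated together with r of 0.00398 to 0.0394 for CJ28 and VEH, -0.0631 to 0.0212 for MET and VEH and -0.124 to -0.00766 for CJ28 and MET. These values are small or negative, and the sources used here do not say whether same-numbered samples were handled together. TPM carries no depth, which leaves the precision of NR4A2, GATA4, GATA6 and the zeros of WT1 unknown beyond the spread of 4 samples.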
